A study of Homo sapiens with 4 samples.

Results

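Immediate early genes and feedback regulators of mitogen-activated protein kinase (MAPK) signalling were examined in 22Rv1 cells, an established human prostate cancer line, after treatment with WCE or with vehicle. The 41 genes were listed by symbol and taken through the gene symbols of the array's annotation: 7 AP-1 factors, 3 EGR factors, 11 dual-specificity phosphatases, 6 Sprouty and SPRED proteins, 6 ETS factors and 8 other immediate early genes with the serum response factor. Of these 41, 40 had at least 1 probe and 35 were tested, among 12136 tested genes in all. EGR2 is not analysed here. EGR3, DUSP7, SPRED3, ETV1 and ELK3 had probes that did not pass the detection filter.

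The WCE group was 22Rv1 cells given 10 µg/mL of WCE, a herbal extract, for 16 h (2 arrays), and the vehicle group was the same cells given vehicle for 16 h (2 arrays). The design covers 1 cell line, 1 dose and 1 time, and the question is which transcripts differ after the extract. Nothing in the labels tells if the 2 arrays of a group stem from different cultures. The p-values therefore reflect the spread among these samples alone, and that spread may be technical. RNA was measured on Illumina bead arrays, in which each probe has a fluorescent signal and a detection p-value. Values below are log2 signals after background correction and quantile normalization.

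Raw signals had medians of 85.1 and 81.7 on the WCE arrays and 83.5 and 82.95 on the vehicle arrays, and between 45.2% and 48.9% of probes were detected. The WCE arrays differed from each other over 2-fold at 339 of 47320 probes and the vehicle arrays at 78. Of 8 markers of prostate luminal epithelium with a probe, 7 were detected on all 4 arrays and 1, KLK3, on none. TMPRSS2 and KLK2, 2 of these 8, fell after WCE, with log2 fold changes of -1.66 (limma adjusted p = 0.00205) and -1.05 (0.0428), and their part in the results below was not tested. The 3 endothelial markers and the leukocyte markers PTPRC and CD3E were detected on no array, while the leukocyte markers CD68 and LYZ were detected on all 4. Of 7 fibroblast markers, COL1A1 and LUM were detected on all 4 arrays and DCN on 3. COL1A2, COL3A1, PDGFRB and THY1 were detected on none.

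Immediate early genes are transcribed within minutes of a growth factor or stress signal, without new protein synthesis. In the ERK branch of MAPK signalling, RAS, RAF, MEK and ERK activate one another in turn, and ERK phosphorylates ETS factors that act with the serum response factor at promoters such as those of FOS and EGR1. The same pathway induces its own inhibitors: dual-specificity phosphatases remove phosphate from MAP kinases, and Sprouty and SPRED proteins act on the steps between receptors and RAF. ETV1, ETV4 and ETV5 form the PEA3 subfamily of ETS factors and are known targets of ERK output. Members of this subfamily are also partners of gene fusions in prostate cancer.

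Promoter sequences are shown for 3 of the genes that rose, from the EGR, phosphatase and AP-1 groups. EGR1 and DUSP1 hold elements through which they are classically induced, and the FOSB window holds no exact match to these. What part the elements had in the changes seen here was not tested. The sequences are RefSeq sequences of GRCh38.p14, the 250 bases before the annotated start, 5′ to 3′ on the gene's own strand. The EGR1 window is chr5:138465229-138465478 (plus strand), the DUSP1 window chr5:172771196-172771445 (minus strand) and the FOSB window chr19:45467746-45467995 (plus strand). Capitals mark CArG boxes, the binding motif of the serum response factor, in EGR1 and the cyclic AMP response element TGACGTCA in DUSP1. FOSB has no exact match to the motifs searched in this window. Near matches, such as tgacgtaa in FOSB, were neither counted nor marked.
EGR1: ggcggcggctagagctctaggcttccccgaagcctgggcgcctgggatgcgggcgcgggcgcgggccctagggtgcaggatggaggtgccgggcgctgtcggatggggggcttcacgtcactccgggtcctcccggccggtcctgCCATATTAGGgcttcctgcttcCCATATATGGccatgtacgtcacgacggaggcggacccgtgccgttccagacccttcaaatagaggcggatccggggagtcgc
DUSP1: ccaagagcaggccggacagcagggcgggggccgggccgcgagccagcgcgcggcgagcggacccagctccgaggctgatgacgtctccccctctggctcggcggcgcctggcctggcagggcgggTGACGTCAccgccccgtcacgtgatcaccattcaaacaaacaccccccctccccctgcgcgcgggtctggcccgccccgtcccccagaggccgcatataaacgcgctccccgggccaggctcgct
FOSB: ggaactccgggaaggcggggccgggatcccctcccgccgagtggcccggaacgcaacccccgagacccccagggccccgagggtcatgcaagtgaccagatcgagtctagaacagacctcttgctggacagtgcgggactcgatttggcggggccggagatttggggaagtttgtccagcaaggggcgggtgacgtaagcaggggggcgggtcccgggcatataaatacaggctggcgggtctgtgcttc

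Of the 35 tested genes, 7 rose after WCE and 0 fell in limma at an adjusted p of 0.05, or 20%, against 1.15% of all tested genes called higher and 1.83% called in either direction. They were ETV5, DUSP4, EGR1, SPRY4, FOSB, DUSP1 and DUSP6, so 5 of the 6 groups held at least 1. At an unadjusted p of 0.05, 13 of the 35 were higher and 1, DUSP8, was lower. Of all 12136 tested genes, 1199 were higher and 1120 lower at that threshold, which is the background for the group counts below. Both WCE arrays lay above both vehicle arrays for 20 of the 35 genes (57.1%, against 26.2% of all tested genes), below them for 2 (24.1% of all tested genes were below), and the groups overlapped for 13. The median log2 fold change, WCE minus vehicle, was 0.27 over the 35 genes and 0.01 over all tested genes, and 18.6% of all tested genes had a larger value than 0.27. The probe of 34 of the 35 genes was detected on all 4 arrays. FOSL1 was detected on 1 WCE array and both vehicle arrays. In bulk RNA, more RNA per cell and more cells that express a gene cannot be told apart.

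The number of calls among these genes, like that over all tested genes, depended on single arrays. It was 3 without WCE replicate 2, 4 without vehicle replicate 1 and 3 without vehicle replicate 2. Without WCE replicate 1 it was larger, and all of the calls were higher except DUSP8, which was lower. That fit called more of all tested genes lower than higher. ETV5, DUSP4 and EGR1 passed in each of these 4 fits, and FOSB, DUSP1, DUSP6 and SPRY4 passed only in the fit without WCE replicate 1.

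**Figure D1:**
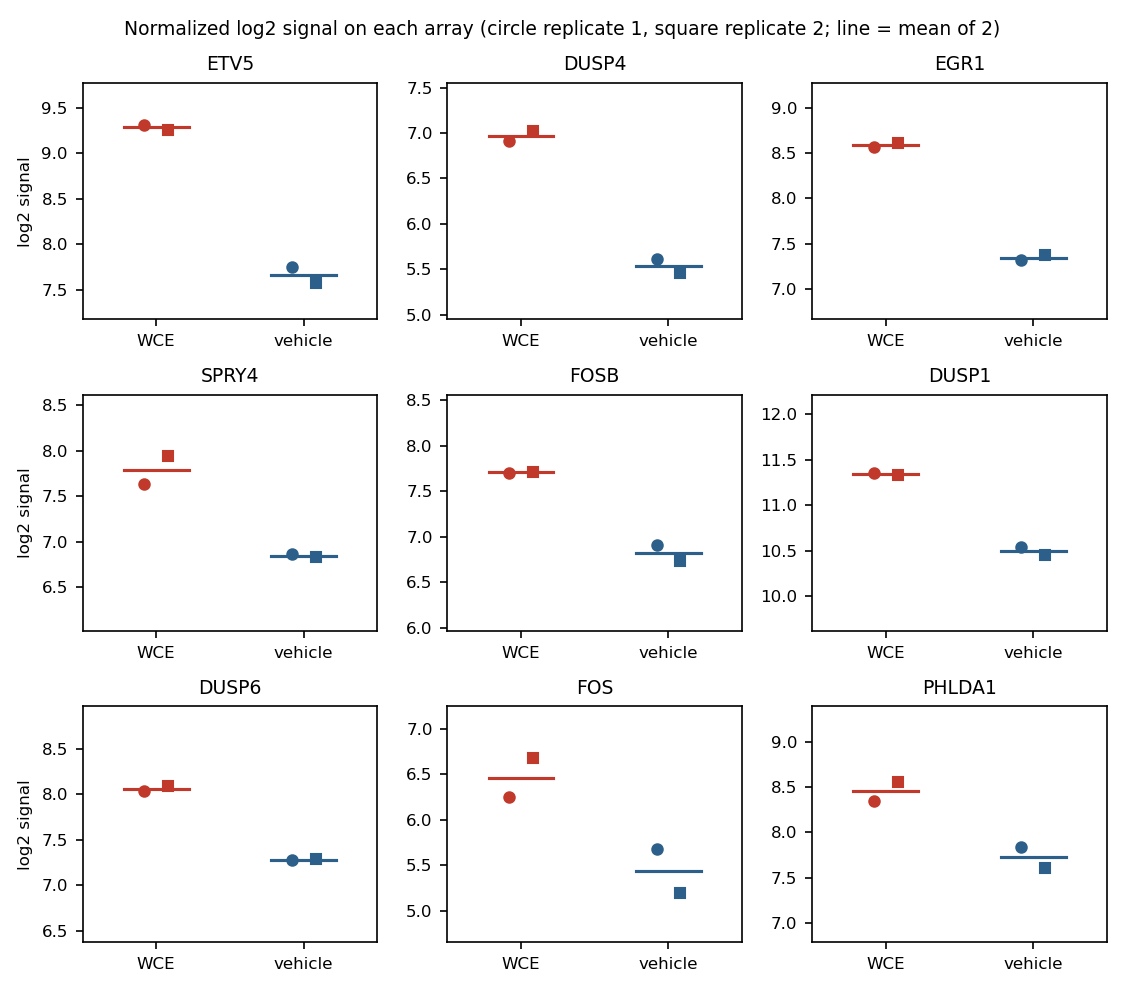
Normalized log2 signal of the called genes and of the nearest uncalled ones on each of the 4 arrays (points), with WCE left of vehicle for each gene. For ETV5 the WCE arrays sit at 9.31 and 9.26 and the vehicle arrays at 7.75 and 7.58.

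Among the ETS factors, 1 of 4 tested genes rose and 0 fell, with a median log2 fold change of 0.38. At an unadjusted p of 0.05, 2 were higher and 0 lower. ETV5 had log2 signals of 9.31 and 9.26 on the WCE arrays, against 7.75 and 7.58 on the vehicle arrays. The groups were far apart compared with the gap within each pair. WCE exceeded vehicle by 1.62 ± 0.16 on the log2 scale (SE, n = 2 per group), a 3.08-fold rise (limma adjusted p = 0.00169), which ranked 28 of 12136 among rises. Its second probe had a log2 difference of 1.13 and an adjusted p of 0.0597 over all tested probes.

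ETV4, the paralogue of ETV5, had 7.03 and 7.35 with WCE, against 6.28 and 6.91 with vehicle. The WCE arrays were above the vehicle arrays, but the vehicle arrays lay 0.64 apart. The log2 fold change of 0.59 had a 95% interval of 0.08 to 1.11 and did not pass (limma adjusted p = 0.202). A second ETV4 probe gave 0.52. The ternary complex factors, ETS proteins that bind DNA beside the serum response factor, did not pass. ELK1 had a log2 fold change of 0.17 and ELK4 had -0.26, with both WCE arrays below both vehicle arrays for ELK4. The probes of ELK4 disagreed. Other tested probes gave -0.30 and -0.05, while another, detected on both WCE arrays and on no vehicle array, was at least 1.13-fold higher with WCE. This bound sets the WCE mean against the lowest signal of a detected probe or the probe's own vehicle signal, whichever was higher. That probe passed the detection filter through the WCE arrays alone, which favours a higher WCE value, so its direction is no evidence of a rise.

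EGR1, a zinc finger transcription factor, was the 1 tested EGR gene. Its log2 signals were 8.57 and 8.61 with WCE, against 7.32 and 7.38 with vehicle. Both pairs were tight and the groups did not overlap. The log2 fold change was 1.24 ± 0.16 (SE, n = 2 per group), or 2.36-fold (limma adjusted p = 0.0056), rank 45 among rises. EGR3 was not tested. Its 2 probes had log2 differences of 0.36 and 0.31, and 1 of them was detected on 1 WCE array and no other array.

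The EGR1 promoter printed above holds CArG boxes CCATATTAGG at 105 to 96 bases and CCATATATGG at 83 to 74 bases before the start. Each motif was searched on both strands in the 250 bases upstream of 35116 RefSeq starts. A gene was counted if any of its windows held the motif, while the percentages are of single windows, so the 2 are unlike measures. A window was found for 33 of the 41 genes, for 28 of the tested ones and for 5 of the 7 that rose (EGR1, DUSP1, DUSP6, FOSB and SPRY4). A CArG box was found in 2 of the 28, EGR1 and SRF, and in 1.16% of all windows. SRF had a log2 fold change of -0.14 and did not pass. EGR1 also had GGAA, the ETS core, within 20 bases of a CArG box, as did 0.481% of all windows.

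The cyclic AMP response element TGACGTCA was found in 3 of the 28 genes, DUSP1, DUSP8 and JUND, and in 1.65% of all windows. In DUSP1 it lies 125 to 118 bases before the start. DUSP8 (log2 fold change -0.58) and JUND (0.18) did not pass in the reported fit. The AP-1 motif TGANTCA was in 0 of the 28 and in 6.57% of all windows, and the EGR motif GCGGGGGCG in 4 (DUSP2, SPRY1, SPRY2 and SRF) and 4.72%. The ETS motif CCGGAAG was in 3 (ELK4, IER2 and SPRY1) and 8.52%. GCGTG, the core of the xenobiotic response element bound by the aryl hydrocarbon receptor, was in 12 and in 32.2% of all windows. DUSP6 was the 1 of the 5 risen genes with a window that held it. GGAA is contained in CCGGAAG, and no other motif contains another. A match describes these letters and not a bound site.

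AP-1 is a dimer of FOS and JUN family proteins that binds TGANTCA. Of its 7 tested genes, 1 rose and 0 fell, and 3 were higher and 0 lower at an unadjusted p of 0.05. All 7 had a log2 fold change above 0, with a median of 0.34. FOSB had 7.70 and 7.72 with WCE, against 6.91 and 6.74 with vehicle, so the groups were separate. Its log2 fold change was 0.88 ± 0.16 (SE, n = 2 per group), or 1.85-fold (limma adjusted p = 0.0332). FOSB did not pass without WCE replicate 2 (adjusted p = 0.0851), without vehicle replicate 1 (0.123) or without vehicle replicate 2 (0.193).

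FOS had 6.25 and 6.68 with WCE, against 5.68 and 5.20 with vehicle. The 5.20, of vehicle replicate 2, was close to the lowest signal of a detected probe on that array, 5.10. The gap was 0.43 between the WCE arrays and 0.48 between the vehicle arrays, wider than those of FOSB. The log2 fold change of 1.02 ± 0.22 (SE, n = 2 per group) missed the threshold (limma adjusted p = 0.0535). It was 0.56 without background correction (adjusted p = 0.0678). FOS passed in 4 of 12 alternative settings. They were the replicate block, the fits without WCE replicate 1 and without vehicle replicate 1, and the mean of each gene's probes (limma adjusted p = 0.0428). FOS has 1 probe, so its log2 fold change of 1.02 was unchanged in the last of these. The replicate block assumes a pairing of arrays that the labels do not give. With 1 array left out, its log2 fold change ran from 0.79 to 1.27. The remaining AP-1 genes did not pass. FOSL2 and JUNB, with both WCE arrays above both vehicle arrays, had 0.34 and 0.46. JUND, also above, had 0.18. JUN and FOSL1, whose groups overlapped, had 0.04 and 0.16. The 95% interval of JUN was -0.33 to 0.41.

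The dual-specificity phosphatases held 3 of the 7 calls. Of 10 tested, 3 rose and 0 fell, with a median log2 fold change of 0.40, and 5 were higher and 1 lower at an unadjusted p of 0.05. DUSP4, a nuclear phosphatase of ERK and other MAP kinases, had 6.91 and 7.02 with WCE, against 5.62 and 5.46 with vehicle. Within-group gaps were small beside the difference. DUSP4 had a log2 fold change of 1.43 ± 0.16 (SE, n = 2 per group), or 2.69-fold (limma adjusted p = 0.00323), rank 37 among rises. Its size depended on the background correction, with a log2 fold change of 0.84 without it, where DUSP4 still passed. A second DUSP4 probe was detected on no array and differed by 0.02.

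DUSP1, a nuclear phosphatase acting on p38, JNK and ERK and itself an immediate early gene, had 11.35 and 11.33 with WCE, against 10.54 and 10.45 with vehicle. The WCE values were nearly equal and both were above vehicle. This gave a log2 fold change of 0.85 ± 0.16 (SE, n = 2 per group), or 1.80-fold (limma adjusted p = 0.0350). DUSP1 did not pass without WCE replicate 2 (adjusted p = 0.0828), vehicle replicate 1 (0.171) or vehicle replicate 2 (0.193).

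DUSP6, a cytoplasmic phosphatase selective for ERK, had 8.04 and 8.09 with WCE, against 7.28 and 7.28 with vehicle. The gap was 0.05 between the WCE arrays and 0.0065 between the vehicle arrays. Its log2 fold change was 0.78 ± 0.16 (SE, n = 2 per group), or 1.72-fold (limma adjusted p = 0.0442). The call was lost without WCE replicate 2 (adjusted p = 0.100), vehicle replicate 1 (0.248) or vehicle replicate 2 (0.197), under median scaling (0.055) and under cyclic loess (0.0549). A second DUSP6 probe, not tested, differed by 0.30.

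The other nuclear inducible phosphatases did not pass. DUSP5, specific for ERK, had a log2 fold change of 0.47 and DUSP2 had 0.09. Of the phosphatases directed mainly at JNK and p38, DUSP10 had 0.33, DUSP16 had -0.01 and DUSP8 had -0.58. DUSP8 had 7.39 and 6.83 with WCE, against 7.72 and 7.66 with vehicle. Both WCE arrays were below both vehicle arrays, and the WCE arrays were 0.56 apart. Its 95% interval was -1.04 to -0.12 and it did not pass (limma adjusted p = 0.173), except without WCE replicate 1 (-0.86, adjusted p = 0.0229). The small atypical phosphatases DUSP14 and DUSP3 had 0.47 and -0.07.

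**Figure D2:**
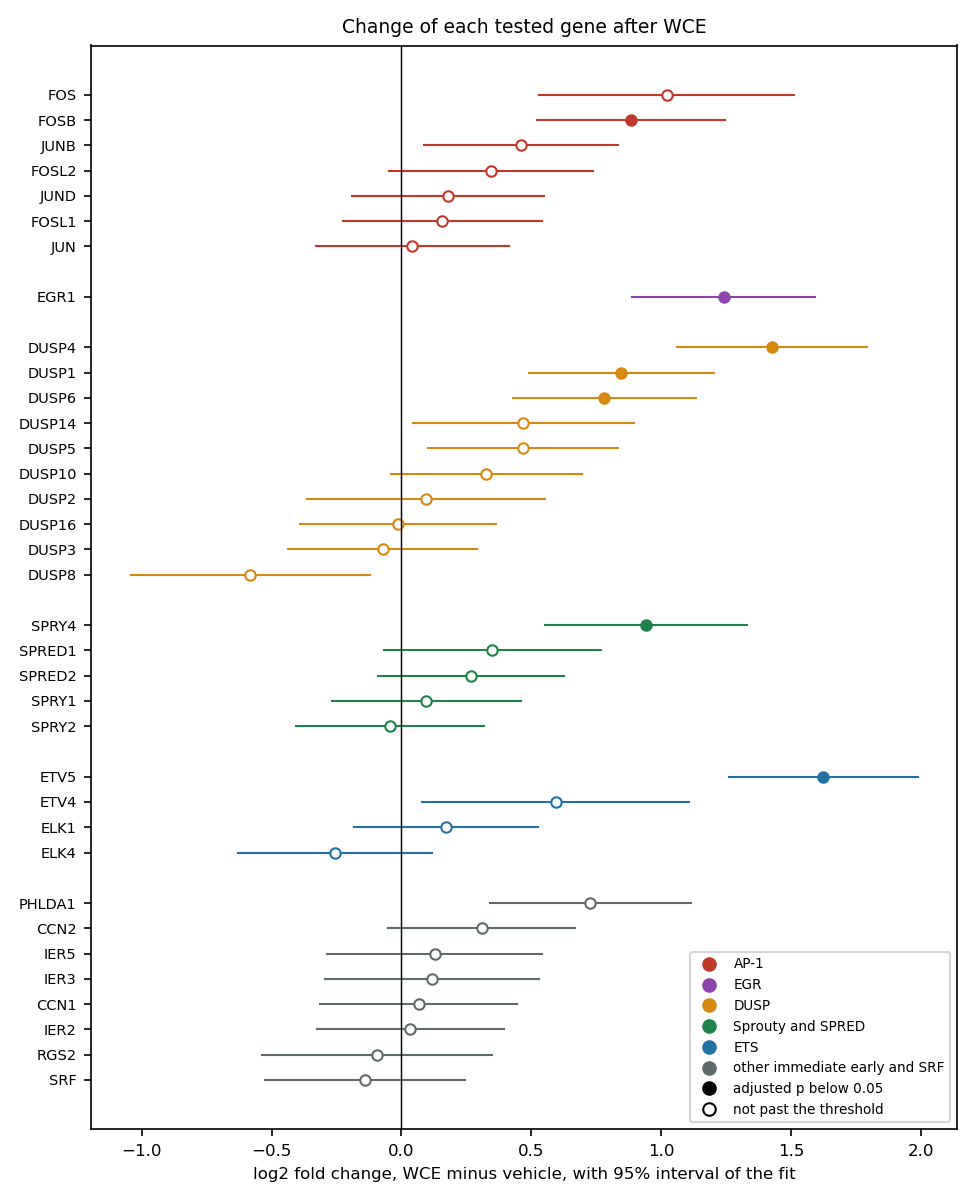
Log2 fold change, WCE minus vehicle, of each tested gene by group, with its 95% interval from limma and the called genes marked. The values run from -0.58 (DUSP8) to 1.62 (ETV5), and the called genes all lie at 0.78 or above.

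Of the Sprouty and SPRED proteins, 1 of 5 tested genes rose and 0 fell, with a median log2 fold change of 0.27. At an unadjusted p of 0.05, 1 was higher and 0 lower. SPRY4 had 7.63 and 7.94 with WCE, against 6.87 and 6.82 with vehicle. The vehicle arrays were close and the WCE arrays lay 0.31 apart. SPRY4 rose with a log2 fold change of 0.94 ± 0.17 (SE, n = 2 per group), or 1.92-fold (limma adjusted p = 0.0335). SPRY4 did not pass without WCE replicate 2 (adjusted p = 0.0956), vehicle replicate 1 (0.147) or vehicle replicate 2 (0.163), or with the mean of its tested probes (0.0811).

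The 4 SPRY4 probes did not move alike. A second tested probe, detected on 1 vehicle array, had a log2 difference of 0.55, and the others, detected on no array, differed by -0.11 and -0.003. SPRY1 and SPRY2, with overlapping groups, had log2 fold changes of 0.10 and -0.04. A second tested SPRY1 probe had 0.38. SPRED1 and SPRED2, which inhibit signalling at RAS and RAF, had 0.35 and 0.27, with both WCE arrays above both vehicle arrays. SPRED3 was detected on no array.

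In the remaining group of 8 immediate early genes and SRF, 0 genes passed in limma in either direction, with 1 higher and 0 lower at an unadjusted p of 0.05. The median log2 fold change was 0.09. PHLDA1, a pleckstrin homology-like protein induced by ERK signalling, had the smallest p of the group. It had 8.35 and 8.56 with WCE, against 7.84 and 7.61 with vehicle, with no overlap. Its log2 fold change was 0.73 ± 0.17 (SE, n = 2 per group), or 1.66-fold (limma adjusted p = 0.0722). PHLDA1 passed in 6 of 13 alternative settings. These included no background correction (limma adjusted p = 0.0395), an offset of 50 (0.0403), the authors' processed values (0.0382) and a strict detection filter (0.0438). The others were the replicate block, a pairing that the labels do not give, and the fit without WCE replicate 1.

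Groups overlapped for 6 of the 8. The nuclear factors IER2 and IER5 had 0.03 and 0.13 and IER3, an anti-apoptotic ERK substrate, had 0.12. SRF itself had -0.14, with a 95% interval of -0.52 to 0.24. RGS2, which switches off Gq signalling, had -0.09. The matricellular protein genes CCN1 and CCN2, which are also YAP targets, had 0.07 and 0.31, and 2 tested CCN2 probes gave 0.31 and 0.07.

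The 28 tested genes that did not pass had log2 fold changes between -0.58 and 1.02. Their 95% intervals reached between 0.35 and 0.51 to each side of the estimate. The interval was wholly above 0 for 6 and wholly below 0 for 1.

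**Figure D3:**
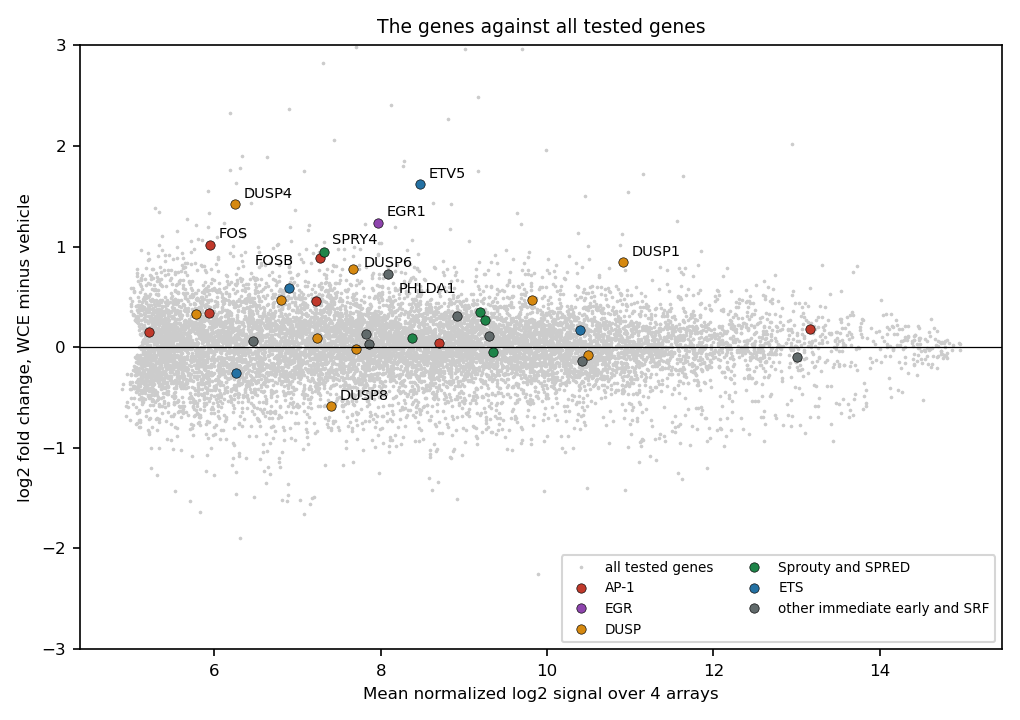
Log2 fold change, WCE minus vehicle, against mean normalized log2 signal for all 12136 tested genes (grey) and the tested genes described here (coloured by group). The coloured points lie at dim and bright signals alike, and 28 of the 35 lie above 0. The vertical axis ends at 3, and 4 tested genes lie beyond it.

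Over probes, 43 of the 57 probes of these genes were tested and 14 were not, and 9 of these 14 were detected on no array. With p-values adjusted over all 21996 kept probes, limma called 3 higher and 0 lower, against 0.532% of kept probes called higher. These were ETV5 (adjusted p = 0.00414), DUSP4 (0.00739) and EGR1 (0.0125). Both WCE arrays lay above both vehicle arrays at 25 of the 43 tested probes and below at 2. The 25 include an ELK4 probe and a SPRY4 probe that passed the detection filter through the WCE arrays alone. The shares over all tested genes, counted by gene and not by probe, were 26.2% above and 24.1% below. Of the 11 genes with several probes, ELK4, SPRY4 and SPRED3 had probes on both sides of 0, while both probes of ETV5 and of ETV4 lay above 0.

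**Figure D4:**
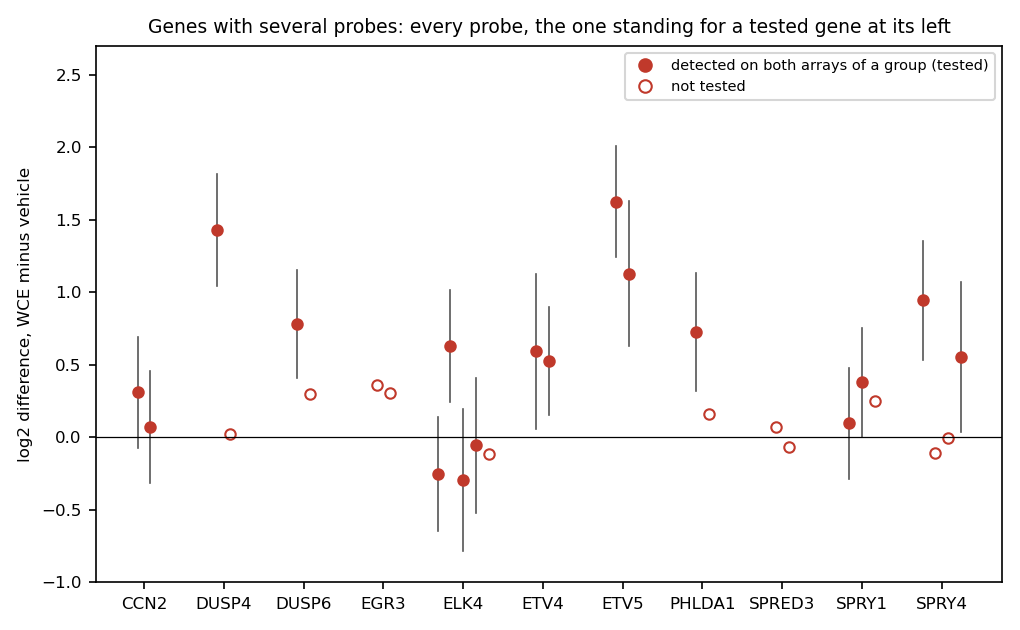
Log2 difference, WCE minus vehicle, at every probe of the genes with several probes, with the probe that stands for a tested gene at its left. Filled points were detected on both arrays of a group and have 95% intervals from limma, and open points were not tested. Both ETV5 probes lie above 0, at 1.62 and 1.13, and the ELK4 probes lie on both sides of 0.

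Genes around this set were described from lists. Their unadjusted counts stand beside 1199 higher and 1120 lower of all 12136 tested genes at an unadjusted p of 0.05. In the RAS, RAF, MEK and ERK core, 20 of 29 genes were tested and 0 passed in limma in either direction, with 0 higher and 0 lower at an unadjusted p of 0.05. The median log2 fold change was 0.03. The genes with the smallest p were the RAS exchange factors SOS1 and SOS2, with log2 fold changes of 0.38 and 0.32, and the ERK-activated kinase RPS6KA1, with 0.30. The list of JNK and p38 kinases also holds kinases upstream and downstream of them. Of its 16 tested genes, 0 passed in limma, with 0 higher and 2 lower at an unadjusted p of 0.05. Their median was 0.03. MAPK13, RPS6KA5 and MAP3K1 had -0.44, -0.40 and -0.45.

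Of 24 other immediate early genes tested, 4 rose and 0 fell, with a median of 0.17, and 10 were higher and 2 lower at an unadjusted p of 0.05. PTGS2, the inducible cyclooxygenase, had 7.23 and 6.91 with WCE, against 5.09 and 5.53 with vehicle. The 5.09, of vehicle replicate 1, was close to the lowest signal of a detected probe on that array, 5.05. The log2 fold change of PTGS2 was 1.76 ± 0.20 (SE, n = 2 per group, limma adjusted p = 0.00323). The salt-inducible kinase SIK1 had 1.20 ± 0.18 (adjusted p = 0.0158) and the nuclear receptor NR4A2 had 1.11 ± 0.19 (0.0272). The other gene that rose, GADD45B, named after its values were seen, had 1.02 ± 0.19 (0.0332).

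Of 9 other ERK output genes, 1 rose and 0 fell, with a median of -0.09, and 3 were higher and 1 lower at an unadjusted p of 0.05. FST, which binds activin, had 8.98 and 9.42 with WCE, against 6.47 and 5.96 with vehicle, a log2 fold change of 2.98 ± 0.22 (SE, n = 2 per group; limma adjusted p = 0.000302). HBEGF and VGF had 0.62 and 0.52 and did not pass.

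Among 10 tested bZIP partners of AP-1, 0 passed in limma, with 3 higher and 0 lower at an unadjusted p of 0.05. BATF3, ATF3 and JDP2 had 0.81, 0.74 and 0.44. Of 12 other dual-specificity phosphatases and related genes, among them PTPRR, STYX and STYXL1, 0 passed. At that unadjusted p, 1 was higher and 1 lower, and the median was -0.01. DUSP19, DUSP18 and DUSP22 had log2 fold changes of -0.91, 0.38 and 0.19.

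Of 15 other ETS family genes, 1 rose and 1 fell, with a median of -0.16. ELF3, an epithelial ETS factor, rose with a log2 fold change of 1.23 ± 0.17 (limma adjusted p = 0.0088), and ELF5, another epithelial member, fell by 0.93 ± 0.18 (0.0391). ETS1 had -0.39. Of 13 cytoskeletal targets and cofactors of SRF, 0 passed in limma, with 2 higher and 2 lower at an unadjusted p of 0.05. ACTA2, TPM2 and TAGLN, all genes of the actin cytoskeleton, had 0.66, -0.55 and -0.41.

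**Figure D5:**
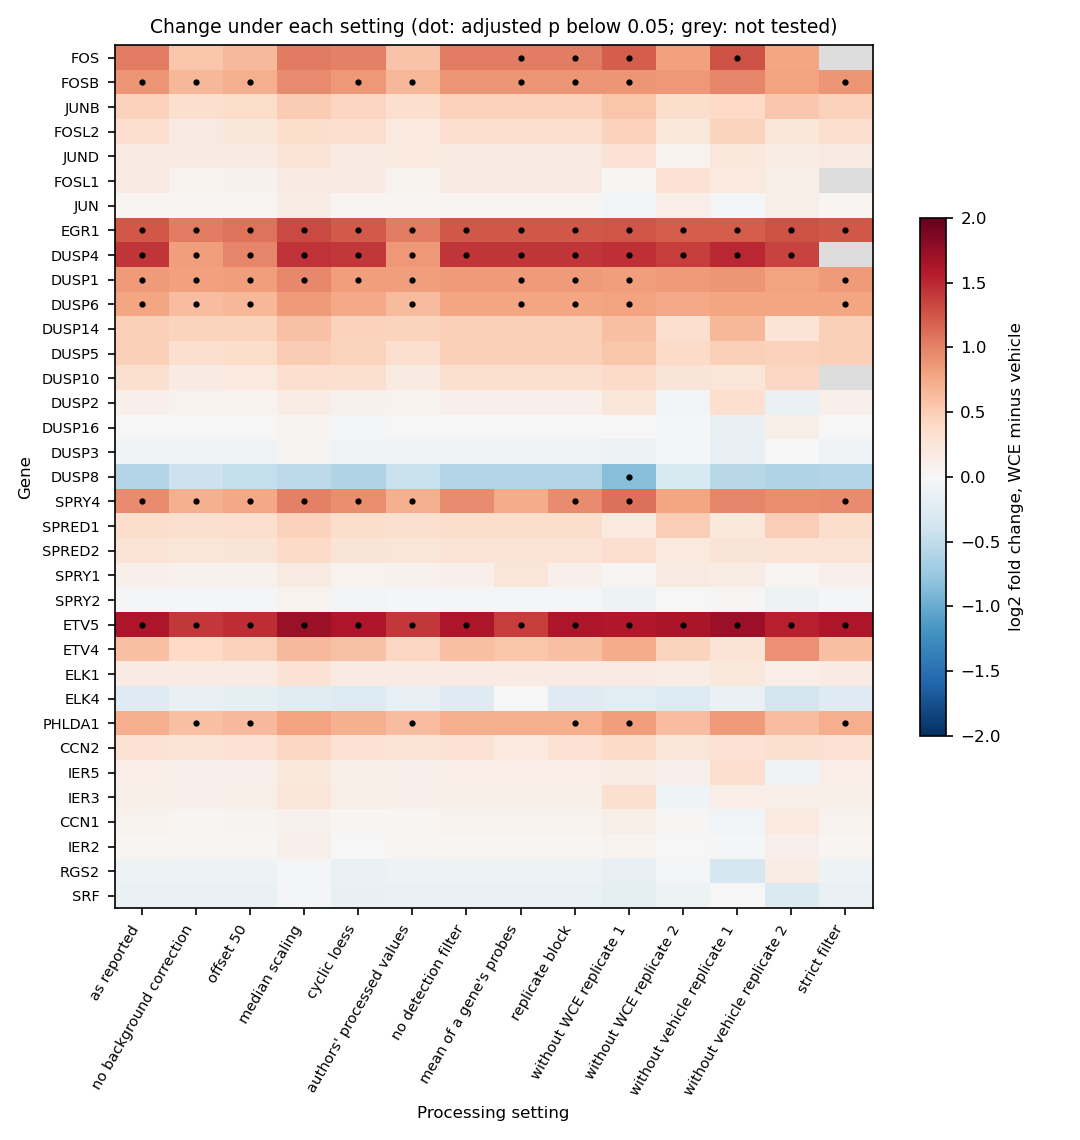
Log2 fold change, WCE minus vehicle (colour), of each tested gene (rows) under the reported setting and each alternative (columns). A dot marks an adjusted p below 0.05 and grey a gene not tested there. The dots run through every tested column for ETV5, EGR1 and DUSP4, and DUSP8 has 1 dot, without WCE replicate 1.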

How the data were processed

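Total RNA of 22Rv1 cells was amplified to biotinylated cRNA and hybridised to 4 Illumina bead arrays, per the labels' protocols. The authors deposited raw intensities, linear scanner signals whose medians differ between arrays, with a detection p-value beside each signal, per the file headers. They also deposited processed log2 values. The sources used here do not state how those were normalized. These ranked probes as the raw signals did (Spearman's rho 1) and had a median of 6.40 on each array. They differed by at most 0.1344 from log2 quantile-normalized raw signals without background correction. The alternatives with the authors' values and without background correction are therefore nearly the same setting.

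In limma 3.58.1 under R 4.3.3, raw intensities were corrected with normexp, the negative-control mean and SD being inferred from the detection p-values, with an offset of 16, then quantile-normalized and taken to log2. Of 47320 probes, 30112 had 1 gene symbol, 8 several (left unnamed) and 17200 none. A probe was kept (21996) if either group had it detected (p below 0.05) on both of its arrays, and each of 12136 genes was represented by its brightest kept probe. The groups were compared with lmFit and eBayes (2 residual, 7.1 prior degrees of freedom), and p-values were adjusted over all genes by Benjamini-Hochberg. The smallest two-sided exact permutation p for 2 arrays against 2 is 0.333, so calls rest on limma's pooled variance. The limma fit and the adjustment were tested on simulated gene-level log2 values. The background correction, normalization, detection filter and choice of probe were not.

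The genes and lists were chosen with earlier results of these data known. Per-array values and statistics were given for each gene past the threshold and, where a group had none, for the one with the smallest p. FOS, ETV4 and DUSP8 were added after their values were seen. From each surrounding list at most 3 genes with the smallest p were named. Alternatives covered the background correction, normalization, filter, choice of probe, the replicate block and single arrays left out. The number of arrays limits the precision.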

Additional observations from a re-analysis of the deposited data

How the results depend on the processing

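The number of genes called over the whole array was 222, and it was 390 without background correction, 368 with an offset of 50, 130 with median scaling, 402 with the authors' processed values, 52 without a detection filter and 744 with a replicate block. Leaving out 1 array gave between 73 and 852. Of the genes described here, 7 were called, 3 without a detection filter, and between 3 and 10 with 1 array left out. The other choices gave 5 to 9 calls. The median log2 fold change of 0.27 was 0.18 without background correction, 0.20 with an offset of 50, 0.34 with median scaling, 0.19 with the authors' values, 0.18 without a filter and 0.18 with a strict filter (all 4 arrays at detection p below 0.01). These medians cover 40 genes without a filter and 31 with the strict filter, against 35 as reported. With median scaling the median over all tested genes was 0.09, against 0.01 as reported. The median of the genes described here stayed above 0 in each of these settings, and the cause of these shifts was not tested. The sign turned for 4 uncalled genes under other settings: DUSP3 (0.053), DUSP16 (0.054) and SPRY2 (0.075) with median scaling and ELK4 (0.0056) with the mean of its probes. It turned with an array left out for JUN (-0.050 to 0.13), DUSP2 (-0.14 to 0.33), DUSP3 (-0.16 to 0.010), DUSP16 (-0.14 to 0.11), SPRY2 (-0.11 to 0.022), IER2 (-0.040 to 0.11), IER3 (-0.082 to 0.32), IER5 (-0.073 to 0.33), RGS2 (-0.34 to 0.15) and CCN1 (-0.058 to 0.19). ETV5 and EGR1 passed in all 13 alternative settings and DUSP4 in all 12 that tested it. Without the filter, FOSB, DUSP1, DUSP6 and SPRY4 did not pass. FOSB was at adjusted p = 0.0501 with median scaling. The labels share replicate numbers but give no pairing, and deviations of same-numbered arrays correlated at r = -0.16 across 12136 genes. The replicate block gave 9 calls among the genes described here, adding FOS and PHLDA1. It assumes a pairing that the labels do not give and leaves fewer residual degrees of freedom than the reported fit. Its p-values therefore rest more on limma's pooled variance, and its 744 calls over all genes compare with 222 without it. A crossed replicate block, chosen after seeing the data, gave 167 calls over all genes and 6 among these. A group left with 1 array takes its spread from the other group.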
